A study of Mus musculus with 27 samples.

Results

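The collagen genes are the rows of the deposited gene table whose name has the form Col, number, a, number and whose transcript types include protein coding. Of 55401 genes in the table, 44 met this rule, and 43 of them had a count in at least 1 of the 27 libraries. Col10a1, a chain of hypertrophic cartilage, had none. For 7 of the 44, protein coding was the only transcript type listed. After a filter of at least 10 counts in at least 3 libraries, 31 of the 44 could be tested, among 19943 genes tested in all. Of these 31, 7 passed the filter only with the libraries of 6 Gy at 24 h included (Col11a1, Col4a6, Col12a1, Col8a2, Col13a1, Col4a4 and Col8a1).

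RNA was from the intestine of wildtype male C57BL/6 mice, 6 to 8 weeks old, in 9 groups of 3 libraries. The control group had no treatment. The irradiated groups were exposed to 60Co gamma rays at 72 R/min. Libraries were made 6 h or 24 h after 6 Gy, and 6 h, 24 h or 3 d after 15 Gy. CBLB502, a flagellin-derived agonist of Toll-like receptor 5 studied as a protectant against radiation, was used at 0.2 mg per kg. It was given alone, with 15 Gy (0.5 h ahead of irradiation) and with 6 Gy (timing not stated). All 3 of these groups were taken at 24 h. The design text counts 7 groups of 10 mice with a PBS group among them, whereas the labels hold 9 groups and describe the control as normal mice. Nothing states that the 3 libraries of a group came from separate mice, and the p-values therefore reflect only how far such libraries vary.

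Collagens are secreted proteins whose alpha chains wind into rope-like helices, and each gene of the family encodes 1 alpha chain. In the gut wall, fibroblasts and smooth muscle cells make the fibrils of types I, III and V. Type IV forms the sheet under epithelium and vessels, type VI a fine network beside it, and type VII the fibrils that anchor epithelium to the stroma. Irradiated intestine is known for late deposition of fibrillar collagen, which stiffens and narrows the bowel.

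Levels per gene are given as CPM, counts scaled by TMM to a common depth, in the order of replicates 1, 2 and 3. Levels of different genes are compared only in FPKM, fragments scaled by gene length and depth. Library totals ran from 57.4 to 87.1 M counts. The deposited counts move in steps of about 3.73 counts (3.68 to 3.77 by library), so the totals correspond to 15.4 to 23.3 M steps, and a collagen gene at 0.05 CPM rests on about 1 step. Collagen genes held only 0.000785 to 0.00482% of the counts in 21 libraries and 0.00736 to 0.0127% in the other 6. Between 16 and 36 of the 44 had a count in a given library. Over all tested genes the common dispersion was 0.207, a biological coefficient of variation of 45.5%. The spread at collagen levels is not given separately.

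Both 24 h groups after 6 Gy, the one given CBLB502 and the one not, differed from the remaining 21 libraries in cell markers. These 6 libraries are called the 6 libraries apart. All 17 exocrine pancreas markers were called higher in both groups against control. Their summed level was 5.24 to 8.43 CPM in control, 81.4, 9392.4 and 119.7 CPM at 6 Gy, 1739.0, 278.8 and 2808.1 CPM with CBLB502 added, and at most 28.4 CPM elsewhere. Of 8 epithelial markers, 6 and 5 were called lower, with sums of 16265.5 to 22666.5 CPM in control, 8495.9 to 10195.3 CPM at 6 Gy and 7765.1 to 9597.4 CPM with CBLB502 added. Of 10 smooth muscle markers, 5 and 2 were called higher, with sums of 118.3 to 158.3 CPM in control, 196.2 to 283.8 CPM at 6 Gy and 150.7 to 209.3 CPM with CBLB502 added. The smooth muscle sums did not set the 6 libraries apart, being 153.0 to 217.9 CPM at 15 Gy 24 h and 171.2 to 193.9 CPM at 15 Gy with CBLB502. Of 8 tested fibroblast markers that are not collagens, 1 and 2 were called higher, with a median log2 fold change of 1.46 and 1.75 against 0.16 and 0.17 over all genes. Their sums of 310.4 to 336.9, 254.8 to 352.2 and 232.6 to 332.8 CPM were mostly Fbln1, a matrix protein. Pdgfra, a receptor that marks gut fibroblasts, was at 0.293 ± 0.0441 CPM in control, 1.8 ± 1.29 CPM at 6 Gy and 2.4 ± 1.45 CPM with CBLB502 added (SD, n = 3), and was called higher in both (edgeR adjusted p = 0.0471 and 0.021). Pdgfrb, of fibroblasts and pericytes, was called higher with CBLB502 added (edgeR adjusted p = 0.017, and 0.0551 at 6 Gy). Dcn, a fibroblast proteoglycan, was at 0.245 ± 0.368, 1.04 ± 0.935 and 1.44 ± 0.706 CPM and was not called (edgeR adjusted p = 0.389 and 0.27). Lum and Mfap5 were at 0 in 25 and 26 of the 27 libraries. Adipocyte sums were lower, at 104.3 to 122.1 CPM at 6 Gy and 76.2 to 135.0 CPM with CBLB502 added against 207.8 to 287.1 CPM in control. Enteric glia and nerve sums, near the floor, were 0.374 to 1.17 and 0.211 to 0.632 CPM against 0.0297 to 0.0944 CPM. Neither list set the 6 libraries apart from all others. Endothelium and mesothelium sums overlapped control. The part of these markers in the collagen results was not tested. In bulk RNA, more cells of a type and more RNA per cell cannot be told apart.

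Summed over the 44 genes, collagen FPKM was 1.4 ± 0.577 in control (SD, n = 3 libraries here and for each group below). It was 10.8 ± 2.05 at 6 Gy 24 h and 13.3 ± 2.67 at 6 Gy with CBLB502, from 8.97 to 15.8 over these 6 libraries. No other library exceeded 6.0, the value of replicate 2 of 15 Gy at 3 d. That group had 3.49 ± 2.2. The remaining groups lay close together, at 2.46 ± 0.27 for 6 Gy at 6 h, 1.42 ± 0.38 for 15 Gy at 6 h, 1.77 ± 0.571 for 15 Gy at 24 h, 1.28 ± 0.0819 for CBLB502 alone and 1.73 ± 0.365 for 15 Gy with CBLB502.

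The makeup of this sum differed as well. Fibril-forming chains supplied 11.7% ± 4.49 of collagen FPKM in control. Their share was 57% ± 12.4 at 6 Gy 24 h and 43.0% ± 16.3 at 6 Gy with CBLB502. In the 21 other libraries the gene with the highest FPKM was Col20a1, a fibril-associated chain, Col18a1, the basement membrane collagen that yields endostatin, or in 1 library Col7a1. In the 6 libraries apart it was Col1a1 in 5, at 2.86 to 4.65 FPKM, and Col6a1 in replicate 3 of 6 Gy with CBLB502, at 2.63 FPKM.

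**Figure D1:**
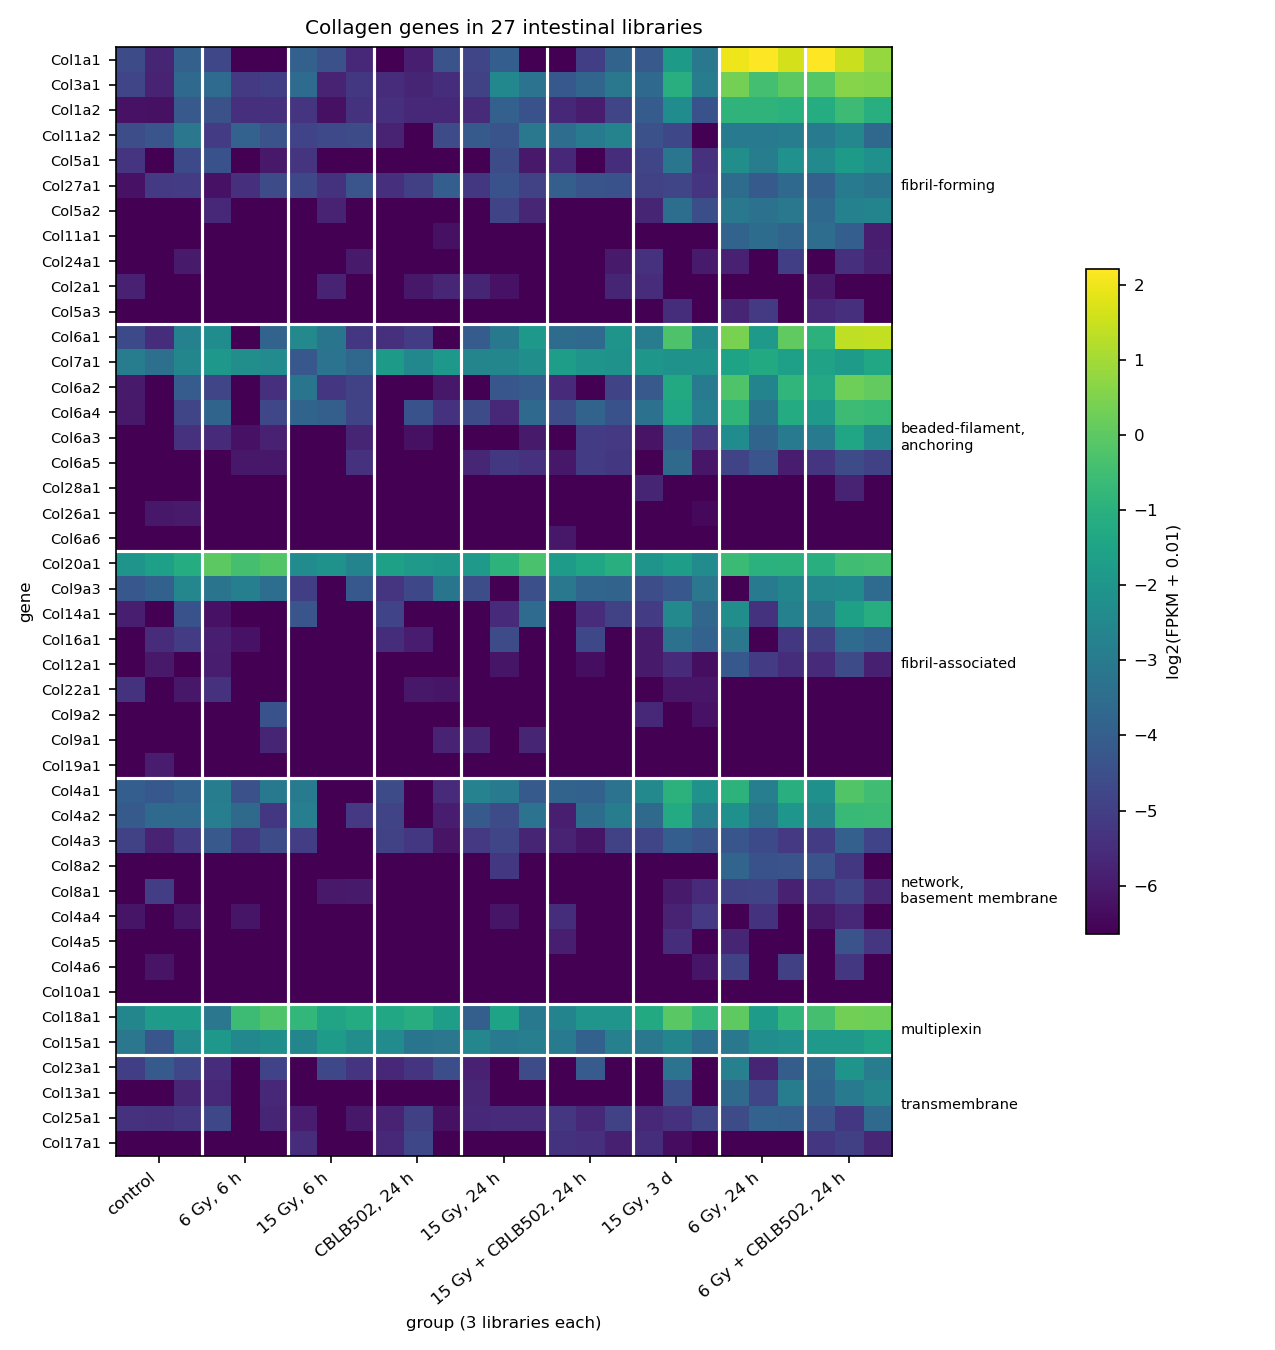
Level of each of the 44 collagen genes (rows, by structural class) in each of the 27 libraries (columns, by group), as log2(FPKM + 0.01). The 6 columns of 6 Gy at 24 h are bright over Col1a1, Col3a1, Col1a2 and the type VI chains, while Col20a1, Col18a1 and Col7a1 are visible in all columns. FPKM ran higher against CPM in these 6 columns.

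**Figure D2:**
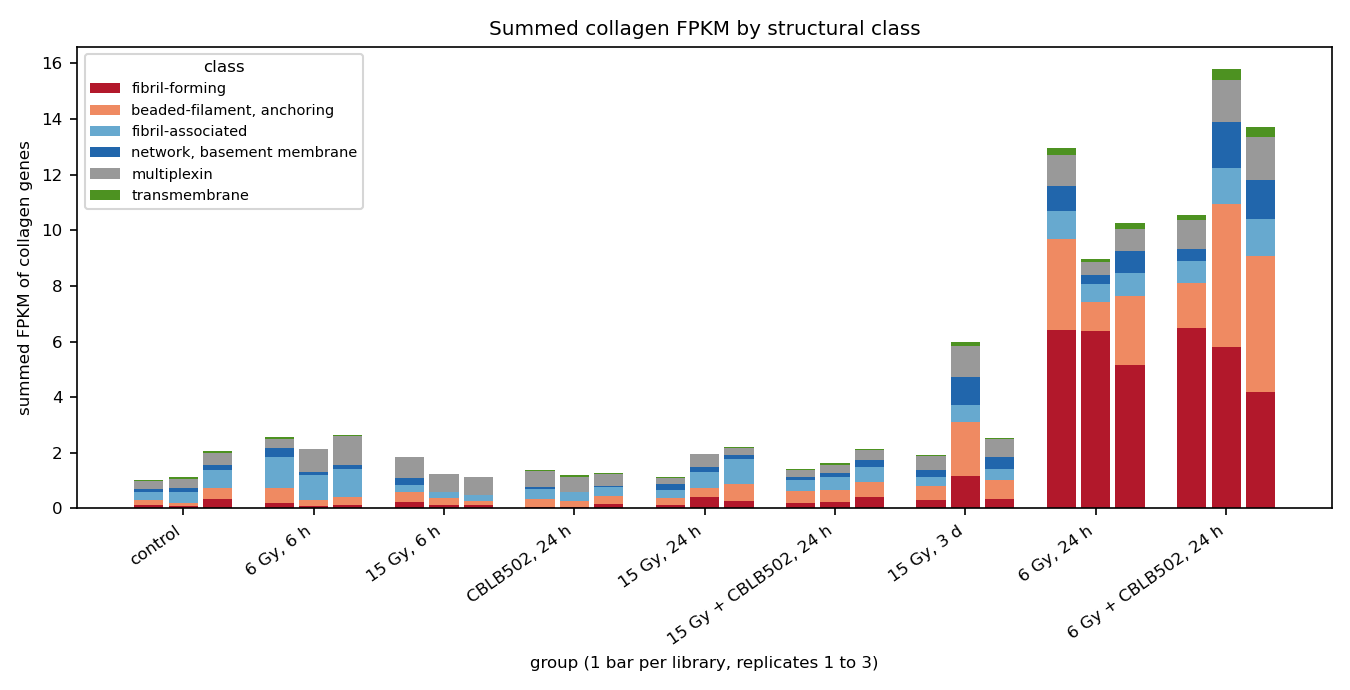
Summed FPKM of the collagen genes in each library, stacked by structural class. The 6 libraries of 6 Gy at 24 h reach 8.97 to 15.8, and replicate 2 of 15 Gy at 3 d is the highest of the other 21 at 6.0. FPKM ran higher against CPM in these 6 libraries, so the contrast is narrower in summed CPM.

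All comparisons with control shared its 3 libraries. At 24 h after 6 Gy, 9 of the 31 tested collagen genes rose and none fell (edgeR quasi-likelihood test, Benjamini-Hochberg adjusted p under 0.05), where 9.16% of all tested genes rose and 18.9% were called in either direction. With CBLB502 added, 11 of 31 rose and none fell, against 11.4% of all tested genes rising and 22.5% called. At 3 d after 15 Gy, 3 of 31 rose and none fell, against 8.52% rising and 17.5% called. The median log2 fold change of the 31 was 2.37, 2.48 and 1.29 in these comparisons, against 0.16, 0.17 and 0.05 over all tested genes. Of the 7 genes that passed the filter only with the 6 libraries apart included, Col11a1 alone was called by edgeR, so 8 and 10 of the other 24 rose in the 6 Gy groups. With genes at 0 in every control library placed at their lower bound, the medians were 1.86, 1.94 and 1.29. Both sets of medians include those 7 genes, which were tested because of their level in the 6 libraries apart. The medians of the 6 Gy groups are thus no independent support.

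In the 6 Gy 24 h groups the calls by edgeR lay in 2 structural classes. Of the fibril-forming chains, 5 of 8 tested rose at 6 Gy and 6 of 8 with CBLB502, or 4 and 5 of 7 without Col11a1, which could be tested only through these libraries. Of the beaded-filament and anchoring chains, 4 of 6 and 5 of 6 rose. None of the 7 network-forming, 5 fibril-associated, 3 transmembrane or 2 multiplexin chains tested was called in either comparison by edgeR, where at an unadjusted p under 0.05 the counts were 1, 0, 0 and 0 at 6 Gy and 2, 0, 1 and 1 with CBLB502. Counts at an unadjusted p, here and below, are given without the share of all tested genes at that threshold, so they are not read against it. In these 4 classes DESeq2 called 0 at 6 Gy and 2 with CBLB502 (Col4a1 and Col18a1), and limma called 5 and 8. Of the limma calls, Col12a1, Col13a1 and Col8a2 at 6 Gy and Col13a1 with CBLB502 passed the filter only through these libraries. The share of all tested genes called by DESeq2 or limma is not given. For 6 genes (Col1a1, Col3a1, Col5a1, Col11a1, Col1a2 and Col6a3), all 6 libraries of 6 Gy at 24 h lay above all 21 others, a pattern shown by 1.3% of tested genes. Col11a1 was tested only because it was high in these libraries, so its place in this count is no independent support. The 1.3% was likewise taken over all tested genes, without leaving such genes out.

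Col1a1 and Col1a2 encode the chains of type I collagen, the main fibril of skin, bone and gut stroma. Col1a1 (ENSMUSG00000001506, chr11:94936224-94953042, plus strand, position as in the deposited table) was at 0.264, 0.0809 and 0.49 CPM in control, 21, 26.9 and 16 CPM at 6 Gy 24 h and 22.1, 16.1 and 9.09 CPM at 6 Gy with CBLB502. Elsewhere it was at 0.244, 0 and 0 CPM (6 Gy, 6 h), 0.448, 0.309 and 0.0871 CPM (15 Gy, 6 h), 0.201, 0.398 and 0 CPM (15 Gy, 24 h), 0.317, 1.8 and 0.775 CPM (15 Gy, 3 d), 0, 0.0552 and 0.362 CPM (CBLB502) and 0, 0.155 and 0.455 CPM (15 Gy with CBLB502). The 6 libraries apart did not overlap any other, and the next highest was replicate 2 of 15 Gy at 3 d. Col1a1 rose by 6.26 ± 1.23 on the log2 scale at 6 Gy (SE, edgeR adjusted p = 0.00124) and by 5.82 ± 1.21 with CBLB502 (edgeR adjusted p = 0.00155). The SE of a log2 fold change, here and below, was derived from the F statistic of the test.

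Col1a2 (ENSMUSG00000029661, chr6:4504814-4541544, plus strand) followed its partner chain. It was at 0.0622, 0.0539 and 0.727 CPM in control, 5.37, 5.9 and 4.9 CPM at 6 Gy 24 h and 3.99, 7.14 and 4.54 CPM with CBLB502 added. The other groups were at 0.602, 0.188 and 0.201 CPM (6 Gy, 6 h), 0.272, 0.0563 and 0.232 CPM (15 Gy, 6 h), 0.174, 0.784 and 0.607 CPM (15 Gy, 24 h), 0.657, 2.32 and 0.525 CPM (15 Gy, 3 d), 0.187, 0.166 and 0.197 CPM (CBLB502) and 0.15, 0.0954 and 0.366 CPM (15 Gy with CBLB502). Again the 6 libraries lay above all others. The changes against control were 4.26 ± 0.86 and 4.21 ± 0.85 on the log2 scale (edgeR adjusted p = 0.00148 and 0.00128). In FPKM, Col1a1 exceeded Col1a2 by 7.47, 8.66 and 6.22 times in the libraries of 6 Gy and by 10.6, 4.29 and 3.8 times with CBLB502. Both chains kept their calls with each of the 6 compared libraries left out in turn.

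Col3a1 encodes type III collagen, which co-assembles with type I in soft organs and vessels (ENSMUSG00000026043, chr1:45311538-45349706, plus strand). It was at 0.342, 0.108 and 0.89 CPM in control, 10.0, 6.38 and 7.68 CPM at 6 Gy 24 h and 6.57, 12.7 and 11.3 CPM with CBLB502 added. The other groups were at 0.992, 0.188 and 0.228 CPM (6 Gy, 6 h), 0.938, 0.113 and 0.218 CPM (15 Gy, 6 h), 0.254, 1.83 and 1.18 CPM (15 Gy, 24 h), 0.743, 4.47 and 1.36 CPM (15 Gy, 3 d), 0.136, 0.11 and 0.181 CPM (CBLB502) and 0.475, 0.703 and 1.19 CPM (15 Gy with CBLB502). The 6 libraries did not overlap the rest, and CBLB502 alone had the lowest group mean. Col3a1 rose by 4.17 ± 0.88 and 4.51 ± 0.9 on the log2 scale (edgeR adjusted p = 0.00225 and 0.0011). At 15 Gy 3 d its difference of 2.3 ± 0.83 did not pass the test (edgeR adjusted p = 0.0595), and the libraries overlapped control.

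Col5a2 (chr1:45374321-45503282, minus strand) lies beside Col3a1 and encodes a chain of type V collagen, which sits inside type I fibrils and sets their width. It was at 0 in every control library, 0.828, 0.759 and 0.821 CPM at 6 Gy 24 h, 0.506, 1.14 and 1.13 CPM with CBLB502 added and 0.0974, 0.785 and 0.375 CPM at 15 Gy 3 d. The gene was 0 in all libraries of CBLB502 alone and of 15 Gy with CBLB502, and 0.13, 0 and 0 CPM (6 Gy, 6 h), 0, 0.113 and 0 CPM (15 Gy, 6 h) and 0, 0.27 and 0.121 CPM (15 Gy, 24 h) in the rest. All libraries of the 3 called groups lay above control, and replicate 2 of 15 Gy at 3 d reached the level of the 6 libraries apart. Against a control floor of 3 steps summed over the group, Col5a2 was at least 14.8-fold higher at 6 Gy, at least 17.0-fold with CBLB502 and at least 7.71-fold at 15 Gy 3 d (edgeR adjusted p = 0.0126, 0.00943 and 0.0223).

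Col11a1 (chr3:114030540-114220718, plus strand), a fibril-nucleating chain best known from cartilage, was close to exclusive to these libraries. It was at 0.637, 0.892 and 0.659 CPM at 6 Gy 24 h, 0.758, 0.593 and 0.0704 CPM with CBLB502 added, 0.0658 CPM in replicate 3 of CBLB502 alone, and 0 in all other libraries. The lowest of the 6, replicate 3 with CBLB502, was hardly above that single other value. Col11a1 was at least 13.4-fold and at least 8.72-fold higher than control (edgeR adjusted p = 0.0145 and 0.0164). It reached 10 counts in 5 of the 6 libraries and in 0 of the other 21, so it was tested only because it was high there, and these p-values are no independent support. DESeq2 did not call it in either comparison.

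The remaining fibril-forming chains changed less or were too variable. Col5a1, the partner of Col5a2, was at 0.187, 0 and 0.326 CPM in control, 1.35, 0.964 and 1.44 CPM at 6 Gy 24 h and 1.09, 2.03 and 1.42 CPM with CBLB502 added. Neither group overlapped control, but the differences of 2.87 ± 1.51 and 3.14 ± 1.53 did not pass the test (edgeR adjusted p = 0.196 and 0.147). Limma called Col5a1 in both, and DESeq2 in neither. Col27a1, a fibrillar chain of cartilage, was at 0.0622, 0.324 and 0.341 CPM in control, 0.816, 0.555 and 0.746 CPM at 6 Gy and 0.544, 1.28 and 0.986 CPM with CBLB502. By edgeR it was called only in the latter (1.94 ± 0.67, edgeR adjusted p = 0.0418), by limma in both, and the edgeR call was lost in 5 of 6 leave-outs, with adjusted p from 0.0498 to 0.18. Between these groups the difference was 0.41 ± 0.64 (edgeR adjusted p = 1.0). Col11a2 was spread over all groups, at 0.295, 0.351 and 0.89 CPM in control, 0.179, 0.427 and 0.295 CPM (6 Gy, 6 h), 0.217, 0.267 and 0.276 CPM (15 Gy, 6 h), 0.388, 0.308 and 0.956 CPM (15 Gy, 24 h), 0.268, 0.191 and 0 CPM (15 Gy, 3 d), 0.0679, 0 and 0.313 CPM (CBLB502), 0.6, 0.906 and 1.15 CPM (15 Gy with CBLB502), 0.65, 0.735 and 0.659 CPM (6 Gy, 24 h) and 0.574, 0.949 and 0.387 CPM (6 Gy with CBLB502). By edgeR and DESeq2 it was called in none of the comparisons, and by limma at 6 Gy 24 h.

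**Figure D3:**
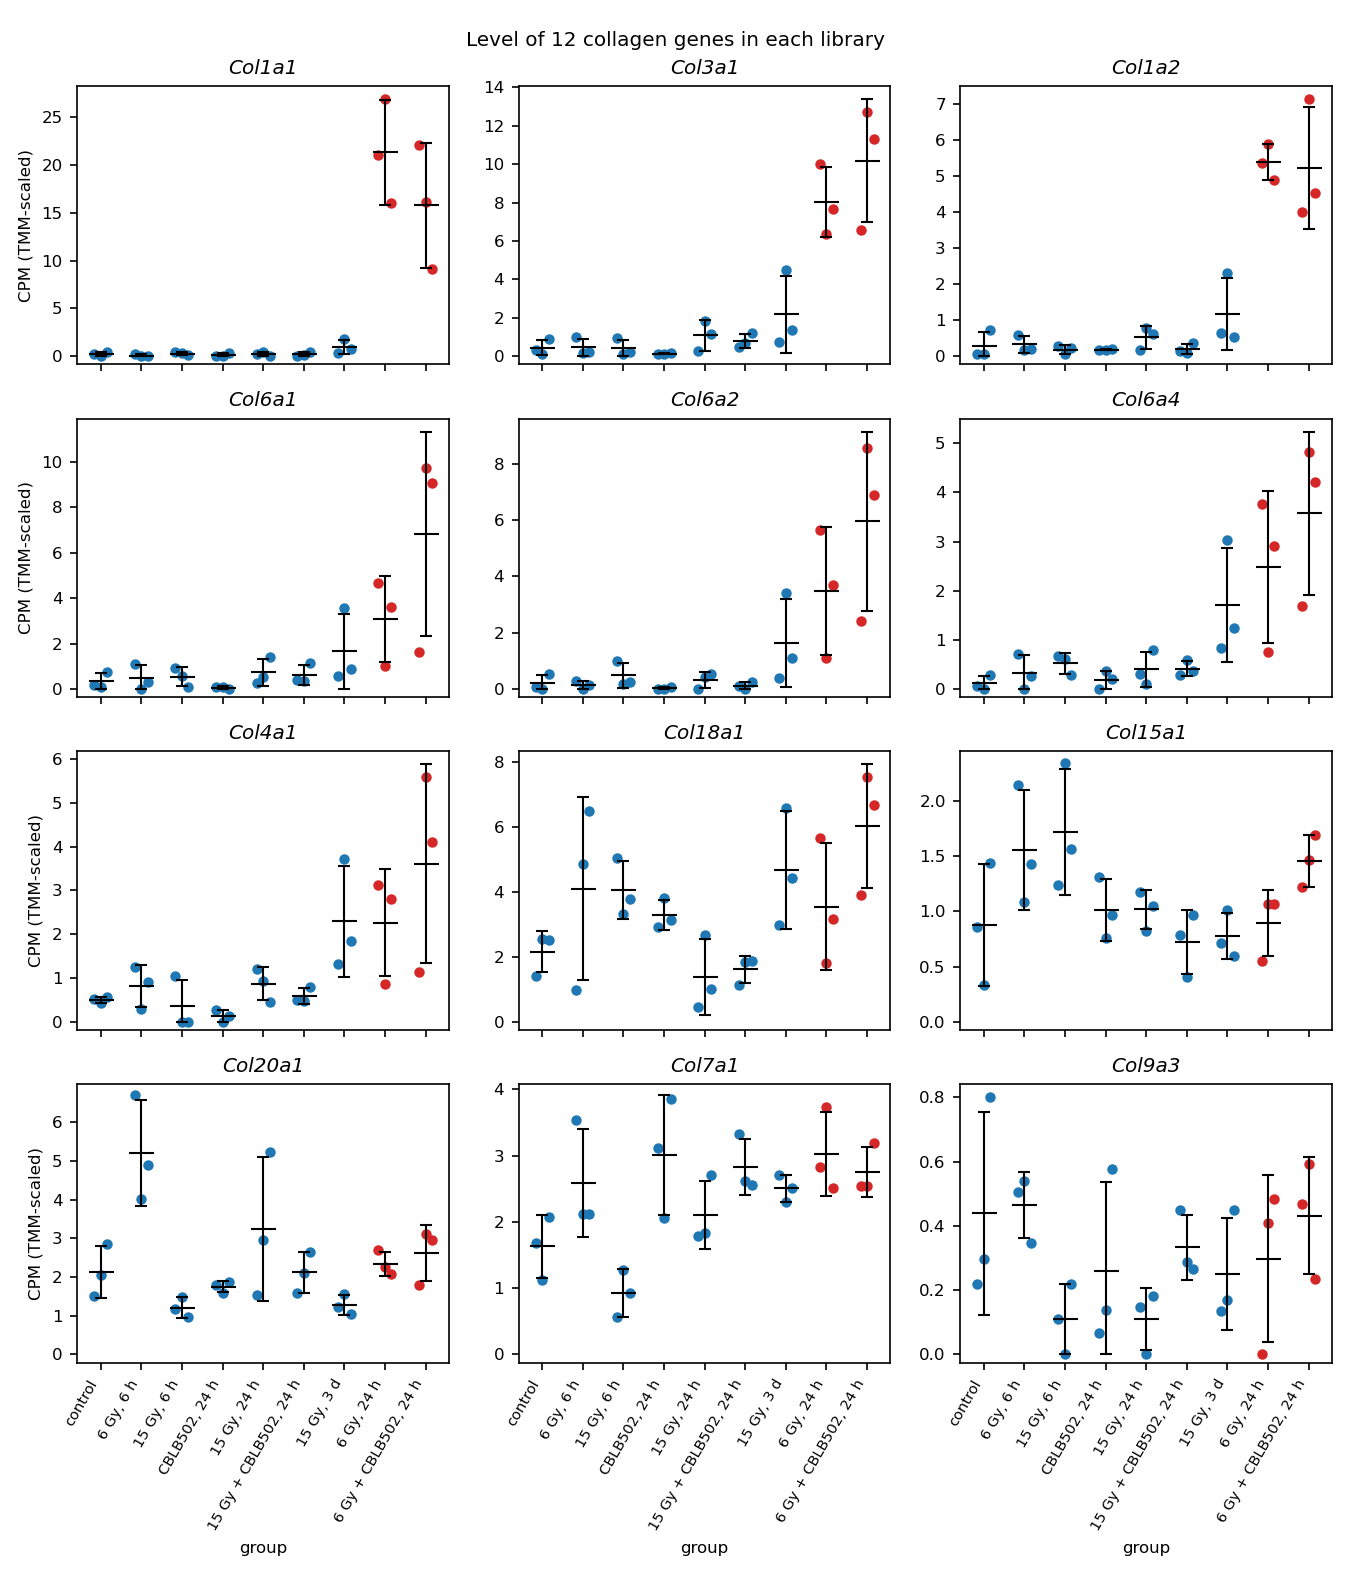
Level in CPM of 12 collagen genes in each library by group (points), with mean and SD (bars, n = 3), and the 6 libraries of 6 Gy at 24 h in red. For Col1a1, Col1a2 and Col3a1 the red points lie above all others, while Col20a1 is highest at 6 Gy 6 h.

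Type VI collagen forms beaded microfilaments that link cells to basement membrane and fibrils. Col6a1 and Col6a2 stand near each other on chromosome 10. Col6a1 (ENSMUSG00000001119, chr10:76708792-76726168, minus strand) was at 0.171, 0.0809 and 0.757 CPM in control, 4.68, 1.0 and 3.62 CPM at 6 Gy 24 h and 1.63, 9.75 and 9.09 CPM with CBLB502 added. The other groups were at 1.11, 0 and 0.295 CPM (6 Gy, 6 h), 0.938, 0.577 and 0.102 CPM (15 Gy, 6 h), 0.254, 0.527 and 1.41 CPM (15 Gy, 24 h), 0.572, 3.57 and 0.862 CPM (15 Gy, 3 d), 0.0679, 0.11 and 0 CPM (CBLB502) and 0.375, 0.358 and 1.14 CPM (15 Gy with CBLB502). Both 6 Gy 24 h groups lay above control but overlapped the group of 15 Gy at 3 d. Col6a1 rose with CBLB502 (4.34 ± 1.23, edgeR adjusted p = 0.0142) and missed the threshold without it (3.2 ± 1.18, edgeR adjusted p = 0.0609). DESeq2 and limma called it in both groups. Between these groups the difference was 1.14 ± 1.07 (edgeR adjusted p = 1.0).

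Col6a2 (ENSMUSG00000020241, chr10:76595762-76623630, minus strand) had the same order of libraries within each of the 2 groups. It was at 0.0622, 0 and 0.534 CPM in control, 5.66, 1.11 and 3.68 CPM at 6 Gy 24 h and 2.41, 8.58 and 6.89 CPM with CBLB502 added. The other groups were at 0.293, 0 and 0.134 CPM (6 Gy, 6 h), 1.01, 0.183 and 0.261 CPM (15 Gy, 6 h), 0, 0.411 and 0.531 CPM (15 Gy, 24 h), 0.402, 3.4 and 1.1 CPM (15 Gy, 3 d), 0, 0 and 0.0658 CPM (CBLB502) and 0.1, 0 and 0.24 CPM (15 Gy with CBLB502). Replicate 2 at 6 Gy and replicate 1 with CBLB502 were the lowest of their groups for both chains, whereas Col1a1 was highest in those same 2 libraries. Col6a2 rose by 4.13 ± 1.38 and 4.9 ± 1.42 on the log2 scale (edgeR adjusted p = 0.0403 and 0.0163).

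Col6a3, the largest chain of the classical assembly, was at 0, 0 and 0.223 CPM in control, 1.78, 0.651 and 1.08 CPM at 6 Gy 24 h and 1.03, 3.77 and 1.67 CPM with CBLB502 added. It did not exceed 0.628 CPM in any other library, and the 6 libraries apart were all higher. It rose with CBLB502 (4.84 ± 1.61, edgeR adjusted p = 0.0341), while 3.96 ± 1.56 at 6 Gy did not pass the test (edgeR adjusted p = 0.079). At 6 Gy limma called Col6a3 and DESeq2 did not.

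Col6a4 and Col6a5 are neighbouring alternative chains of the type VI family on chromosome 9. Col6a4 (chr9:105989454-106072409, minus strand) was at 0.0622, 0 and 0.282 CPM in control, 3.76, 0.759 and 2.92 CPM at 6 Gy 24 h, 1.69, 4.83 and 4.21 CPM with CBLB502 added and 0.84, 3.04 and 1.25 CPM at 15 Gy 3 d. The other groups were at 0.715, 0 and 0.268 CPM (6 Gy, 6 h), 0.666, 0.619 and 0.276 CPM (15 Gy, 6 h), 0.308, 0.103 and 0.789 CPM (15 Gy, 24 h), 0, 0.373 and 0.197 CPM (CBLB502) and 0.287, 0.584 and 0.366 CPM (15 Gy with CBLB502). All libraries of the 3 called groups lay above control. Col6a4 rose by 4.43 ± 1.24 at 6 Gy, 4.95 ± 1.26 with CBLB502 and 3.89 ± 1.22 at 15 Gy 3 d on the log2 scale (edgeR adjusted p = 0.0154, 0.00717 and 0.0292).

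Col6a5 (chr9:105856078-105960643, minus strand) was 0 in every control library and in CBLB502 alone. It was at 0.191, 0.35 and 0.0498 CPM at 6 Gy 24 h, 0.117, 0.249 and 0.188 CPM with CBLB502 added, 0, 0.696 and 0.05 CPM at 15 Gy 3 d, and 0, 0.0503 and 0.0536 CPM (6 Gy, 6 h), 0, 0 and 0.174 CPM (15 Gy, 6 h), 0.107, 0.193 and 0.182 CPM (15 Gy, 24 h) and 0.05, 0.215 and 0.189 CPM (15 Gy with CBLB502) in the rest. All 3 libraries of 15 Gy at 24 h and of 15 Gy with CBLB502 were also above control, with no call there by edgeR and a call by DESeq2 at 15 Gy with CBLB502. It was called in the same 3 comparisons as Col6a4, at least 3.62-fold, at least 3.39-fold and at least 4.57-fold higher than control (edgeR adjusted p = 0.0407, 0.0374 and 0.0343). In the last, replicate 1 was at 0 like the controls, and replicate 2 carried the mean. Limma called Col6a5 in none of the 3 comparisons. Dividing the counts by the step ended both of its 6 Gy 24 h calls and no other reported collagen call. Fitting the compared groups alone ended the calls at 6 Gy without CBLB502 and at 15 Gy 3 d. The former was also lost without the filter, and the latter with the replicate block.

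Most type VI calls depended on single libraries. At 6 Gy, Col6a2 lost its call without control replicate 1 or 2 or without replicate 1 or 3 of 6 Gy (adjusted p from 0.0149 to 0.144), and Col6a4 lost it without control replicate 1 or 2 or 6 Gy replicate 1 (0.00985 to 0.0726). Col6a5 lost it in 5 of 6 leave-outs (0.0487 to 0.111). With CBLB502, Col6a1 and Col6a2 lost their calls without control replicate 1 or 2 (0.0114 to 0.0703 and 0.00737 to 0.0742), Col6a3 without control replicate 1 or 2 or CBLB502 replicate 2 or 3 (0.00875 to 0.117), and Col6a5 in all 6 leave-outs (0.0579 to 0.103). Col6a4 with CBLB502 kept its call in all 6.

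Col7a1 encodes the anchoring fibril of epithelium (chr9:108953586-108984875, plus strand) and was present in every library. It was at 1.68, 1.13 and 2.08 CPM in control, 3.53, 2.12 and 2.12 CPM (6 Gy, 6 h), 0.557, 1.28 and 0.929 CPM (15 Gy, 6 h), 1.78, 1.83 and 2.7 CPM (15 Gy, 24 h) and 2.71, 2.3 and 2.51 CPM (15 Gy, 3 d). It was at 3.12, 2.06 and 3.85 CPM (CBLB502), 3.32, 2.62 and 2.56 CPM (15 Gy with CBLB502), 2.82, 3.73 and 2.51 CPM (6 Gy, 24 h) and 2.54, 2.54 and 3.19 CPM (6 Gy with CBLB502). The 15 Gy 6 h group was the lowest and did not overlap 6 Gy at the same time. Col7a1 rose at 6 Gy 24 h by 0.89 ± 0.31 (edgeR adjusted p = 0.0483), a call lost in 5 of 6 leave-outs (0.0455 to 0.26), without the filter, with median-ratio scaling, with the replicate block and with the compared groups fitted alone. CBLB502 alone differed by 0.88 ± 0.31 with an edgeR adjusted p of 0.138.

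Promoter sequence was available for 35 of the 44 genes (RefSeq, GRCm38.p6, 38 windows of the 250 bases before a start). The 4 windows printed are examples from genes called in these data, 1 each of a fibril-forming, a fibril-nucleating, a type VI and an anchoring chain, taken where the window overlapped no annotated exon. Capitals mark CCAAT or GGGCGG or TATAAA, each searched on both strands (ATTGG for the first and CCGCCC for the second on the other strand).
Col3a1, chr1:45311288-45311537, plus strand: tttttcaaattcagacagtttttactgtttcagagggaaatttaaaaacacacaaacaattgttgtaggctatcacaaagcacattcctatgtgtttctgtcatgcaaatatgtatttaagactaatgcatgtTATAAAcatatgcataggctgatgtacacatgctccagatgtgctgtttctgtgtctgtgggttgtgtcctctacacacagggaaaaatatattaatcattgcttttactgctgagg
Col11a1, chr3:114030290-114030539, plus strand: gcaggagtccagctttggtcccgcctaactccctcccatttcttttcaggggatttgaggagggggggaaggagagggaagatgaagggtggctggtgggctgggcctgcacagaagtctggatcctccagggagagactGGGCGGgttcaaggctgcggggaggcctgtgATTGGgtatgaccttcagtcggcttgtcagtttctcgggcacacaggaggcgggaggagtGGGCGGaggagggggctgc
Col6a5, chr9:105960644-105960893, minus strand: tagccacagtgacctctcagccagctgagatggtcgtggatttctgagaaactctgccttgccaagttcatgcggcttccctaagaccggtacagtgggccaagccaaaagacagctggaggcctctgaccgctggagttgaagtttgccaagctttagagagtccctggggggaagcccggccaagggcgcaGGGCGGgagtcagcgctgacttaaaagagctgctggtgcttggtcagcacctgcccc
Col7a1, chr9:108953336-108953585, plus strand: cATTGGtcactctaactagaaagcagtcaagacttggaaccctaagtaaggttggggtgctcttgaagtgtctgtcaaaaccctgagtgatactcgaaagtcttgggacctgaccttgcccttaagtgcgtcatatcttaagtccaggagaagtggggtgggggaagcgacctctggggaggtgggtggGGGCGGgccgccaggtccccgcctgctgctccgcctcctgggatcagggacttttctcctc
Col3a1 held TATAAA from 117 to 112 bases before its start and neither of the others. Col11a1 held GGGCGG beginning 110 and 19 bases before the start and CCAAT on the other strand at 79. Col6a5 held GGGCGG at 57, and Col7a1 held GGGCGG at 61 and CCAAT on the other strand at 249. Over all collagen windows, CCAAT was found in 34.2%, GGGCGG in 57.9% and TATAAA in 13.2%, against 33.8, 32.7 and 12.4% of 32851 windows of all genes. No marked match overlapped another in these windows, and a match is a description of these windows only.

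Type IV collagen is the scaffold of basement membrane, and Col4a1 and Col4a2 encode its main chains from a shared start region on chromosome 8. Their gene models overlap by 22 bases, from 11312805 to 11312826, so reads there cannot be told apart without strand. Col4a1 was at 0.513, 0.418 and 0.564 CPM in control, 1.24, 0.289 and 0.897 CPM (6 Gy, 6 h), 1.05, 0 and 0 CPM (15 Gy, 6 h), 1.2, 0.938 and 0.455 CPM (15 Gy, 24 h) and 1.31, 3.72 and 1.85 CPM (15 Gy, 3 d). It was at 0.271, 0 and 0.132 CPM (CBLB502), 0.5, 0.477 and 0.796 CPM (15 Gy with CBLB502), 3.12, 0.856 and 2.81 CPM (6 Gy, 24 h) and 1.14, 5.6 and 4.1 CPM (6 Gy with CBLB502). All libraries of 15 Gy at 3 d and of both 6 Gy 24 h groups lay above control, but the differences of 2.2 ± 1.09, 2.18 ± 1.09 and 2.85 ± 1.12 did not pass the test (edgeR adjusted p = 0.182, 0.169 and 0.0692). Limma called Col4a1 in each of these comparisons, and DESeq2 only at 6 Gy with CBLB502.

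Col4a2 was at 0.404, 0.607 and 0.608 CPM in control, 1.14, 0.503 and 0.134 CPM (6 Gy, 6 h), 1.05, 0 and 0.145 CPM (15 Gy, 6 h), 0.361, 0.244 and 0.804 CPM (15 Gy, 24 h) and 0.511, 2.76 and 0.937 CPM (15 Gy, 3 d). It was at 0.187, 0 and 0.0658 CPM (CBLB502), 0.05, 0.584 and 0.909 CPM (15 Gy with CBLB502), 1.12, 0.567 and 1.27 CPM (6 Gy, 24 h) and 0.739, 3.53 and 3.43 CPM (6 Gy with CBLB502). Both chains were lower in all 3 libraries of CBLB502 alone than in control, by -1.91 ± 1.18 and -2.7 ± 1.26 on the log2 scale, and neither passed the test (edgeR adjusted p = 0.449 and 0.285). Replicate 2 of 6 Gy at 24 h and replicate 1 of 6 Gy with CBLB502 were again the lowest of their groups for both chains, as for type VI.

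Col4a3, a chain of the kidney and lung form of type IV, stayed at or below 0.602 CPM. It was at 0.295, 0.108 and 0.237 CPM in control, 0.602, 0.188 and 0.348 CPM (6 Gy, 6 h), 0.258, 0 and 0 CPM (15 Gy, 6 h), 0.201, 0.296 and 0.121 CPM (15 Gy, 24 h), 0.28, 0.527 and 0.45 CPM (15 Gy, 3 d), 0.254, 0.207 and 0.0658 CPM (CBLB502), 0.1, 0.0477 and 0.278 CPM (15 Gy with CBLB502), 0.331, 0.265 and 0.149 CPM (6 Gy, 24 h) and 0.146, 0.474 and 0.2 CPM (6 Gy with CBLB502). Every group overlapped control, with no call. At 15 Gy 6 h, replicates 2 and 3 held no count of Col4a3 and no count of Col4a1, and with replicate 1 left out these 2 chains were called lower than control by edgeR. Col8a2, a vessel and cornea network chain, was at 0.242, 0.157 and 0.137 CPM at 6 Gy 24 h and 0.126, 0.0711 and 0 CPM with CBLB502 added, 0.09 CPM in replicate 2 of 15 Gy at 24 h, and 0 in the other libraries. Neither difference passed the test (edgeR adjusted p = 0.0885 and 0.139). Limma called Col8a2 at 6 Gy 24 h, a gene tested only through the 6 Gy 24 h libraries. Col8a1, Col4a4 and Col4a6 reached at most 0.216, 0.212 and 0.153 CPM.

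Col18a1 and Col15a1 are the multiplexins of basement membrane zones. Col18a1 (chr10:77052178-77166548, minus strand) was among the highest of the family outside the 6 libraries apart. It was at 1.42, 2.53 and 2.52 CPM in control, 0.975, 4.84 and 6.48 CPM (6 Gy, 6 h), 5.03, 3.31 and 3.79 CPM (15 Gy, 6 h), 0.441, 2.67 and 1.0 CPM (15 Gy, 24 h) and 2.98, 6.59 and 4.43 CPM (15 Gy, 3 d). It was at 2.93, 3.8 and 3.14 CPM (CBLB502), 1.14, 1.85 and 1.86 CPM (15 Gy with CBLB502), 5.65, 1.8 and 3.15 CPM (6 Gy, 24 h) and 3.89, 7.53 and 6.67 CPM (6 Gy with CBLB502). All libraries of 15 Gy at 6 h, of 15 Gy at 3 d, of CBLB502 alone and of 6 Gy with CBLB502 lay above control. None of these differences was called by edgeR, and the last was 1.48 ± 0.57 (edgeR adjusted p = 0.066). DESeq2 and limma called Col18a1 at 6 Gy with CBLB502. At 15 Gy 6 h the multiplexins supplied 48.4% ± 7.77 of collagen FPKM, against 26.0% in control.

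Col15a1 was at 0.855, 0.337 and 1.44 CPM in control, 2.15, 1.09 and 1.43 CPM (6 Gy, 6 h), 1.24, 2.35 and 1.57 CPM (15 Gy, 6 h), 1.18, 0.823 and 1.05 CPM (15 Gy, 24 h) and 0.718, 1.01 and 0.6 CPM (15 Gy, 3 d). It was at 1.31, 0.759 and 0.971 CPM (CBLB502), 0.787, 0.405 and 0.972 CPM (15 Gy with CBLB502), 0.548, 1.07 and 1.07 CPM (6 Gy, 24 h) and 1.22, 1.47 and 1.69 CPM (6 Gy with CBLB502). It overlapped control in every group and was called in no comparison by edgeR or DESeq2, while limma called it at 6 Gy with CBLB502.

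Col20a1, a little-studied fibril-associated chain (chr2:180986535-181017714, plus strand), had the highest FPKM of the family in all control libraries. It was at 1.52, 2.04 and 2.85 CPM in control, 6.7, 4.02 and 4.89 CPM (6 Gy, 6 h), 1.17, 1.49 and 0.972 CPM (15 Gy, 6 h), 1.54, 2.96 and 5.22 CPM (15 Gy, 24 h) and 1.23, 1.56 and 1.04 CPM (15 Gy, 3 d). It was at 1.8, 1.59 and 1.86 CPM (CBLB502), 1.6, 2.11 and 2.65 CPM (15 Gy with CBLB502), 2.69, 2.27 and 2.07 CPM (6 Gy, 24 h) and 1.79, 3.12 and 2.97 CPM (6 Gy with CBLB502). The 6 Gy 6 h libraries lay above all control libraries and above all of 15 Gy 6 h. Col20a1 rose by 1.28 ± 0.35 at 6 Gy 6 h, the only call among 31 collagen genes there (edgeR adjusted p = 0.0135), where 6.95% of all tested genes rose and 15.9% were called. The call was lost without control replicate 1 or 2 or 6 Gy replicate 1 (adjusted p from 0.011 to 0.0842).

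The doses compared at 6 h differed in 2 collagen genes, both lower at 15 Gy, where 15.7% of all tested genes were lower and 28.6% were called. This count is below these shares. Col20a1 and Col7a1 were both lower at 15 Gy than at 6 Gy, by -2.1 ± 0.36 and -1.49 ± 0.32 on the log2 scale (edgeR adjusted p = 1.1e-04 and 9.8e-04), and in each the groups did not overlap. Both calls held in all leave-outs (1.7e-04 to 0.00151 and 7.5e-04 to 0.0116). Of the 8 summed marker lists, 6 did not overlap between these groups either. The fibroblast sum, mostly Fbln1, was 623.1 to 692.9 CPM at 15 Gy against 199.7 to 242.4 CPM at 6 Gy, smooth muscle 106.1 to 127.7 against 55.7 to 59.4 CPM, epithelium 17136.3 to 24423.7 against 12702.8 to 14857.7 CPM, endothelium 2.01 to 3.91 against 5.2 to 9.74 CPM, adipocyte 195.7 to 407.3 against 126.2 to 167.2 CPM and exocrine pancreas 7.63 to 8.18 against 8.84 to 23.5 CPM. Of these lists, edgeR called 1 of 8, 2 of 10 and 4 of 8 markers higher, 1 of 8 lower, 1 of 2 higher and 3 of 17 lower, in that order. Their part in the collagen difference was not tested.

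Against control, 15 Gy at 6 h called no collagen gene by edgeR, where 18.3% of tested genes were called. At an unadjusted p under 0.05 there were 5, Col20a1 and Col7a1 among them (-0.82 ± 0.35 and -0.82 ± 0.31, edgeR adjusted p = 0.112 and 0.0738), and DESeq2 called 1, Col7a1, and limma 0. Col20a1 shares 741 bases (chr2:180986535-180987275) with 9230112E08Rik on the same strand, so reads could be split between them. That gene averaged 2.27 ± 0.337 CPM in control. At 6 h it averaged 3.1 ± 0.703 CPM after 6 Gy and 1.95 ± 0.502 CPM after 15 Gy.

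The other fibril-associated chains were low. Col9a3, a cartilage chain called in no comparison, was at 0.218, 0.297 and 0.801 CPM in control, 0.504, 0.54 and 0.348 CPM (6 Gy, 6 h), 0.109, 0 and 0.218 CPM (15 Gy, 6 h), 0.147, 0 and 0.182 CPM (15 Gy, 24 h), 0.134, 0.168 and 0.45 CPM (15 Gy, 3 d), 0.0679, 0.138 and 0.576 CPM (CBLB502), 0.45, 0.286 and 0.265 CPM (15 Gy with CBLB502), 0, 0.41 and 0.485 CPM (6 Gy, 24 h) and 0.467, 0.593 and 0.235 CPM (6 Gy with CBLB502). Col14a1, which coats interstitial fibrils, was at 0.0622, 0 and 0.326 CPM, 0.0325, 0 and 0 CPM, 0.367, 0 and 0 CPM, 0, 0.09 and 0.713 CPM, 0.146, 1.19 and 0.512 CPM, 0.187, 0 and 0 CPM, 0, 0.0954 and 0.189 CPM, 1.13, 0.0964 and 0.796 CPM and 0.554, 1.93 and 2.48 CPM in the same order of groups. Its libraries of 6 Gy with CBLB502 all lay above control, a difference of 3.66 ± 1.77 that did not pass the test (edgeR adjusted p = 0.142). Limma called Col14a1 there, and DESeq2 did not. Col16a1 was at 0, 0.121 and 0.163 CPM, 0.065, 0.0251 and 0 CPM, 0, 0 and 0 CPM, 0, 0.257 and 0 CPM, 0.0487, 0.639 and 0.45 CPM, 0.102, 0.0552 and 0 CPM, 0, 0.215 and 0 CPM, 0.586, 0 and 0.0995 CPM and 0.126, 0.451 and 0.317 CPM in that order, with every group overlapping control. Col12a1 reached 0.548 CPM in the 6 libraries apart and 0.168 CPM elsewhere.

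Transmembrane collagens span the cell surface and were low throughout. Col23a1 was at 0.156, 0.351 and 0.193 CPM in control, 0.0975, 0 and 0.161 CPM (6 Gy, 6 h), 0, 0.211 and 0.116 CPM (15 Gy, 6 h), 0.0535, 0 and 0.243 CPM (15 Gy, 24 h), 0, 0.539 and 0 CPM (15 Gy, 3 d), 0.0679, 0.11 and 0.296 CPM (CBLB502), 0, 0.31 and 0 CPM (15 Gy with CBLB502), 0.625, 0.0482 and 0.236 CPM (6 Gy, 24 h) and 0.282, 1.14 and 0.575 CPM (6 Gy with CBLB502). Col25a1, expressed in neurons, was at 0.233, 0.229 and 0.282 CPM, 0.504, 0 and 0.134 CPM, 0.109, 0 and 0.116 CPM, 0.161, 0.167 and 0.197 CPM, 0.158, 0.202 and 0.375 CPM, 0.136, 0.359 and 0.0658 CPM, 0.237, 0.155 and 0.354 CPM, 0.344, 0.687 and 0.585 CPM and 0.369, 0.202 and 0.74 CPM in the same order. Neither was called by edgeR or DESeq2, whereas limma called Col25a1 at 6 Gy 24 h and Col23a1 at 6 Gy with CBLB502. Only Col25a1 at 6 Gy 24 h lay wholly above control. Col13a1, of muscle and nerve junctions, was at 0, 0 and 0.0594 CPM in control, 0.28, 0.108 and 0.473 CPM at 6 Gy 24 h and 0.224, 0.486 and 0.563 CPM with CBLB502 added, and at most 0.18 CPM elsewhere. Both groups lay above control without passing the test (edgeR adjusted p = 0.195 and 0.133). Limma called Col13a1 in both, but it was tested only through these libraries. Col17a1, the hemidesmosome collagen, was not tested and was 0 in control, at 6 Gy 6 h, at 15 Gy 24 h and at 6 Gy 24 h. It was at 0.0679, 0.207 and 0 CPM (CBLB502), 0.112, 0.0954 and 0.0505 CPM (15 Gy with CBLB502) and 0.0778, 0.119 and 0.047 CPM (6 Gy with CBLB502). The rest were at 0.0951, 0 and 0 CPM (15 Gy, 6 h) and 0.0852, 0.0224 and 0 CPM (15 Gy, 3 d). All these values rest on few steps.

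The other untested genes reached little more than a few steps in any library. Their highest levels were 0.225 CPM for Col4a5, 0.195 CPM for Col22a1, 0.137 CPM for Col24a1, 0.134 CPM for Col9a2, 0.132 CPM for Col2a1 and 0.121 CPM for Col5a3. Col9a1, Col26a1, Col19a1, Col6a6 and Col28a1 stayed at or below 0.0658 CPM.

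**Figure D4:**
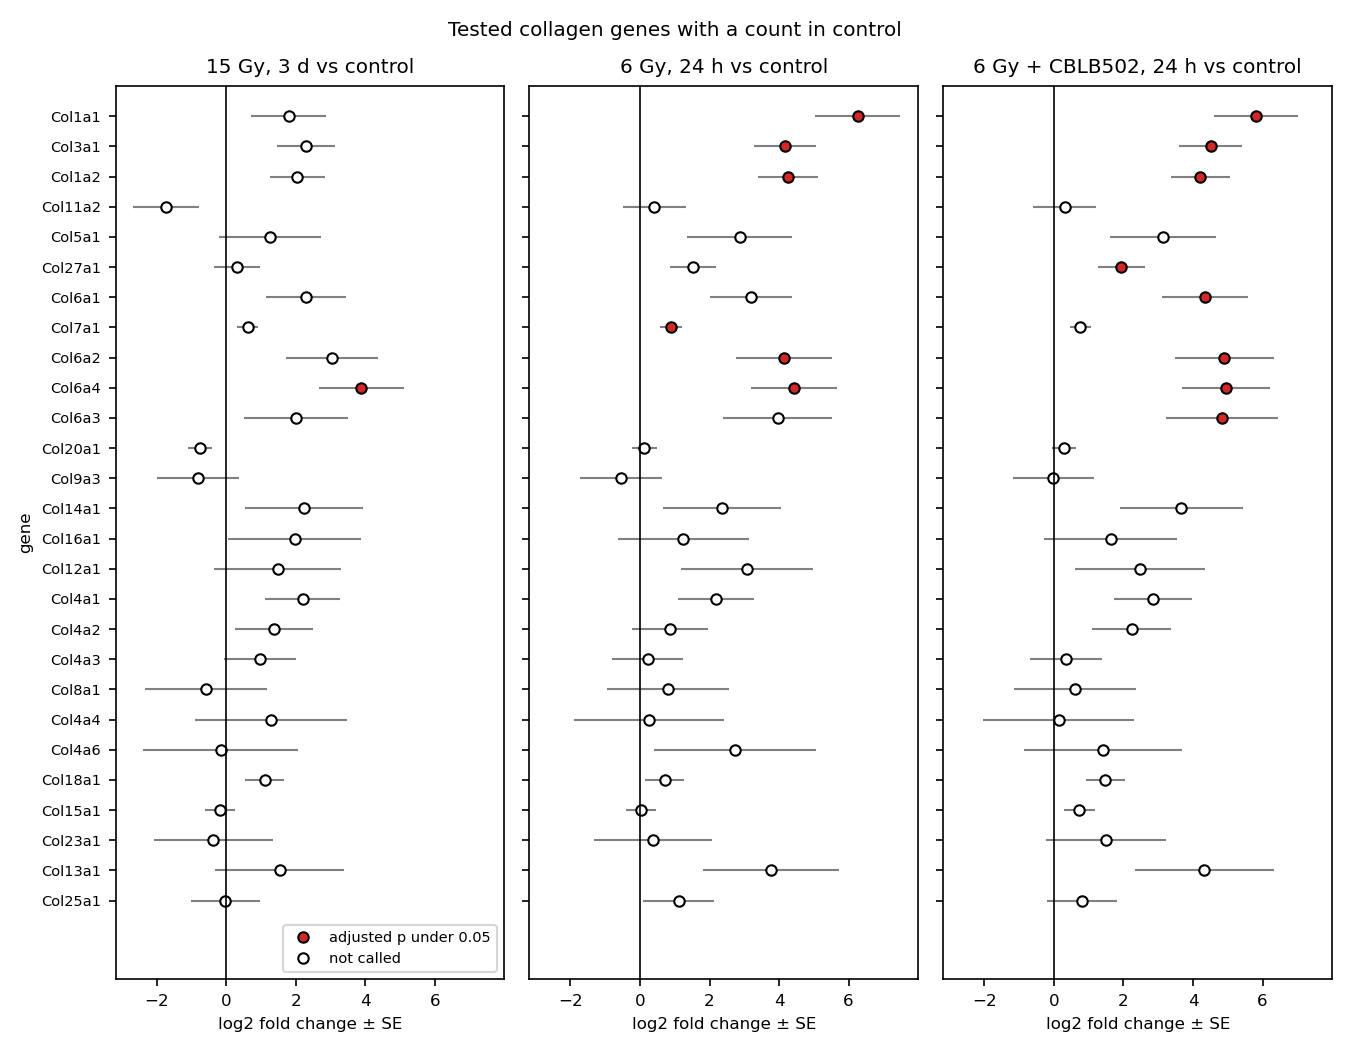
Log2 fold change against control, with SE derived from the F statistic, of the 27 tested collagen genes that had a count in control, at 15 Gy 3 d, 6 Gy 24 h and 6 Gy with CBLB502. Filled points are called by edgeR (adjusted p under 0.05). The other 4 tested genes were 0 in control and are not drawn.

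At 15 Gy 3 d the collagen differences leaned upward, but the 3 called higher were a share near the 8.52% of all tested genes called higher. Of the 3 calls, those of Col5a2 (adjusted p from 0.0245 to 0.0683), Col6a4 (0.0178 to 0.107) and Col6a5 (0.0207 to 0.234) were all lost without control replicate 1 or 2 or 15 Gy replicate 2. All 3 were also lost when the 6 libraries of 6 Gy at 24 h were left out of the fit, which left 0 calls by edgeR. Replicate 2 was the highest of its group for each of the 3 and for Col1a1, Col3a1 and Col6a1. DESeq2 called 5 and limma 6, and of the genes they added Col3a1 and Col1a2 were called by both. Beside this, 3 of 8 endothelial markers rose, with sums of 9.54 to 19.2 CPM against 2.14 to 4.01 CPM in control, no pancreas marker was called, and of 10 smooth muscle markers 0 rose and 1 fell. Mesothelium sums were also higher, at 6.55 to 11.9 CPM against 2.07 to 2.4 CPM in control. Enteric glia and nerve sums, near the floor, were 0.325 to 1.04 against 0.0297 to 0.0944 CPM. Fibroblast sums were lower, at 210.0 to 245.9 against 310.4 to 336.9 CPM. So were smooth muscle sums, at 83.6 to 115.0 against 118.3 to 158.3 CPM. Adipocyte sums were lower too, at 136.1 to 167.4 against 207.8 to 287.1 CPM. The part of these markers in the collagen values was not tested.

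At 15 Gy 24 h edgeR called no collagen gene, where 1.92% of tested genes were called, with 3 at an unadjusted p under 0.05 and 0 by DESeq2 or limma. The median log2 fold change of the 31 was 0.0. The question for CBLB502 was whether it changes the intestine by itself or after irradiation. CBLB502 alone called none by edgeR, where 2.41% of tested genes were called, with 5 at an unadjusted p under 0.05, 1 called by DESeq2 (Col5a1, at 0 in all 3 libraries) and 0 by limma. The median was -0.84, or -1.0 with zero-count genes at their bound, against 0.0 for all genes. With 15 Gy, CBLB502 called none against control by edgeR, where 8.51% were called (3 at an unadjusted p under 0.05, Col6a5 by DESeq2 and Col7a1 by limma). The shares of all tested genes are for adjusted p and are no background for the counts at an unadjusted p.

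Set against irradiation without it, CBLB502 changed no collagen gene by edgeR at either dose, where 0.00501% of tested genes were called at 15 Gy and 0% at 6 Gy. At an unadjusted p under 0.05 there were 1 and 0, and DESeq2 and limma called 0. The standard errors of these differences were wide. At 6 Gy, Col1a1 differed by -0.44 ± 0.95, Col1a2 by -0.05 ± 0.73, Col3a1 by 0.34 ± 0.76, Col4a2 by 1.38 ± 1.1 and Col6a4 by 0.53 ± 1.03 (log2, SE, each edgeR adjusted p = 1.0). The test of whether CBLB502 acted differently with radiation than without called none of the 31 at 15 Gy (0.12% of tested genes, 0 at an unadjusted p under 0.05) or at 6 Gy (0.0953%, with Col7a1, Col5a1 and Col4a2 at an unadjusted p under 0.05).

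The counts for other genes of collagen biology are read against the 18.9, 22.5 and 17.5% of all tested genes called at 6 Gy 24 h, at 6 Gy with CBLB502 and at 15 Gy 3 d. Of 21 tested genes that modify and secrete procollagen (29 listed), 4 rose and 1 fell at 6 Gy, 4 rose and 3 fell with CBLB502, and 3 rose and 1 fell at 15 Gy 3 d. The first and last of these counts are near the share over all genes. Of the 3 with the highest FPKM, Ppib, a prolyl isomerase of the procollagen complex, fell in all 3 comparisons (-0.61 ± 0.14, -0.56 ± 0.14 and -0.52 ± 0.14, edgeR adjusted p = 0.00468, 0.00712 and 0.0133). P4hb, a subunit of prolyl hydroxylase and a general protein disulfide isomerase, fell with CBLB502 (-0.51 ± 0.13, edgeR adjusted p = 0.00828) and missed the threshold at 6 Gy (-0.38 ± 0.13, edgeR adjusted p = 0.0512). Mia3, a cargo receptor for bulky collagen, was not called by edgeR in the 3 comparisons. Chosen after their values were seen, Serpinh1, the collagen chaperone, rose by 4.1 ± 1.04 and 4.23 ± 1.04, Pcolce, which enhances procollagen cleavage, by 1.67 ± 0.47 and 1.73 ± 0.47, and Loxl2, a crosslinking oxidase, by 4.88 ± 1.7 and 5.23 ± 1.72 in the 6 Gy groups (edgeR adjusted p = 0.00839, 0.00573, 0.0154, 0.0106, 0.0476 and 0.0317).

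Of 12 tested genes of collagen breakdown (15 listed), 2 rose and 1 fell at 6 Gy, 3 and 1 with CBLB502, and 1 and 1 at 15 Gy 3 d, counts near these shares. Mmp14, a membrane collagenase, rose by 1.46 ± 0.32, 1.72 ± 0.32 and 2.01 ± 0.32 in these comparisons (edgeR adjusted p = 0.00264, 6.0e-04 and 1.1e-04). Pepd, which releases proline from collagen peptides, fell by 0.64, 0.92 and 1.36 on the log2 scale (edgeR adjusted p = 0.0139, 8.5e-04 and 1.3e-05). Mmp10 was called only with CBLB502 (4.72 ± 1.7, edgeR adjusted p = 0.0496).

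Of 8 tested collagen receptors, 1 was called in each comparison, below or near the share over all genes. At 6 Gy and with CBLB502 the gene called was Itgb1, which fell, the shared beta subunit of the collagen integrins (-0.61 ± 0.15 and -0.59 ± 0.15, edgeR adjusted p = 0.00737 and 0.00725). At 15 Gy 3 d 1 rose, Itga2, its alpha partner for collagen binding (1.74 ± 0.37, edgeR adjusted p = 0.00201). Ddr1, the collagen-binding kinase of epithelium, was not called by edgeR.

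Of 18 tested other matrix genes (20 listed), 6 rose and 3 fell at 6 Gy, 10 and 3 with CBLB502, and 6 and 1 at 15 Gy 3 d. Among those with the highest FPKM, Lamb3 and Lama3 encode chains of epithelial laminin, to which Col7a1 fibrils attach. Lamb3 fell by 1.07 and 1.37 on the log2 scale in the 6 Gy groups and rose by 0.84 ± 0.27 at 15 Gy 3 d (edgeR adjusted p = 0.00757, 0.001 and 0.0318), and Lama3 fell by 2.38, 2.27 and 2.08 in the same 3 comparisons (edgeR adjusted p = 0.00582, 0.00637 and 0.0128). Chosen after their values were seen, Fn1, fibronectin, rose by 3.82 ± 1.16 and 3.84 ± 1.16 and Sparc, a collagen-binding glycoprotein, by 2.47 ± 0.69 and 2.26 ± 0.69 in the 6 Gy groups (edgeR adjusted p = 0.025, 0.0207, 0.0157 and 0.0216).

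The TGF-beta pathway runs from secreted ligands through paired receptors to Smad proteins. Of its 13 tested genes, 0 rose and 1 fell at 6 Gy, 0 and 3 with CBLB502, and 1 and 0 at 15 Gy 3 d, where 9.16, 11.4 and 8.52% of all tested genes rose. Over a list of this length these counts are near the shares. Smad4, the shared mediator, fell by 0.98 and 1.03 on the log2 scale in the 6 Gy groups (edgeR adjusted p = 7.3e-04 and 4.2e-04). Smad7, an inhibitor, fell with CBLB502 (-0.79 ± 0.28, edgeR adjusted p = 0.0442), and Skil was not called by edgeR in the 3 comparisons. The single rise at 15 Gy 3 d was Tgfbr2, the ligand-binding receptor, named after its values were seen, from 13.4 CPM in control to 115.0 CPM (3.1 ± 0.3, edgeR adjusted p = 2.1e-07).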

How the data were processed

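Intestinal RNA of 27 libraries was described by 1 table of 55401 genes. The authors deposited FPKM values and estimated counts per gene and library, with 0.0001 printed for an FPKM of 0. The counts were used as deposited whole numbers, but values of 4 (30833) far outnumber 3 (8192) and 5 (4686), so they advance in steps of about 3.73 and were treated as estimated counts; division by the step was run as an alternative. The submitters' processing notes name Bowtie 0.12.2, HISAT2 2.0, StringTie 1.3.0 and mm8, without roles. Which counting rule, strand setting and annotation were used is not given in the sources used here. Start and end matched GENCODE vM21 on GRCm38 for 51957 of 55141 genes and for 38 of the 44 collagen genes, so positions are given on GRCm38.

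Counts were tested with edgeR 4.0.16 in R 4.3.3 (TMM scaling, quasi-likelihood F test in 1 fit of all 27 libraries, at least 10 counts in at least 3 libraries, Benjamini-Hochberg over 19943 genes, threshold 0.05). There were 11 comparisons of 2 groups and 2 interactions of CBLB502 with dose, the latter added after the data were seen. Alternatives were no filter, a floor of 1 FPKM in 3 libraries, median-ratio scaling, DESeq2 1.42.0, limma 3.58.1 on log2(FPKM + 0.1), the replicate number as a block, the compared groups alone, leaving the 6 libraries of 6 Gy 24 h out of the fit, and each library left out. A trial on simulated data was run, but its outcome is not given here. No support for the collagen calls is drawn from that trial. Replicates of a group differed by more than counting error (chi-square per degree of freedom 89.4 to 783), so none was a plain repeat sequencing of another. The steps of the counts raise this value. It cannot tell libraries of separate mice from separate preparations of 1 mouse. CPM are counts per 1 M after TMM scaling. The SE of a log2 fold change is its size divided by the square root of the F statistic, and is not an error estimated by the model. For genes near 0 in control it is only a rough guide. A gene at 0 in a whole group was given a floor of 3 steps over that group.

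Members and lists were chosen with earlier results of these data known. Values per library are given for up to 4 members of each structural class with the highest mean FPKM and for every member called in 2 or more comparisons. For the other lists the counts are given with up to 3 tested genes of highest mean FPKM. Samples were grouped by their titles. Promoter windows are from RefSeq (GRCm38.p6). One other matrix gene that the naming rule selects is not reported here.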

Additional observations from a re-analysis of the deposited data

Results flagged for a closer look

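Col20a1 differed between the 2 doses at 6 h. Its level was 5.2 CPM on average at 6 Gy and 1.21 CPM at 15 Gy, a log2 difference of -2.1 (edgeR adjusted p = 1.1e-04), lower in 3 of 3 libraries. Against control it rose at 6 Gy, while the lower level at 15 Gy did not pass the test (edgeR).

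Col7a1 differed between the same doses and in the same direction. Its level was 2.59 CPM on average at 6 Gy and 0.922 CPM at 15 Gy, a log2 difference of -1.49 (edgeR adjusted p = 9.8e-04), lower in 3 of 3 libraries. Against control at 6 h, edgeR called it at neither dose, and DESeq2 called it at 15 Gy.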

How the results depend on the processing

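The counts of collagen genes called were within 1.5 times the reported ones in 82 of 96 settings other than leave-outs. This includes comparisons whose reported count was 0 and stayed at 0, which says little about the calls that were made. With a floor of 1 FPKM in 3 libraries, 4 collagen genes remained to be tested. They passed it only through the 6 libraries of 6 Gy at 24 h. The highest collagen value elsewhere was 0.948 FPKM (Col18a1, replicate 2 of 15 Gy at 3 d). The calls were 0 at 6 Gy 6 h, 3 at 6 Gy 24 h, 1 at 15 Gy 3 d, 4 at 6 Gy with CBLB502 and 0 for 15 Gy against 6 Gy at 6 h. Those in the 6 Gy 24 h groups are no independent support. DESeq2 called 1 at 15 Gy 6 h, 5 at 15 Gy 3 d, 1 for CBLB502 alone and 1 for 15 Gy with CBLB502. Limma on log2(FPKM + 0.1) called 18 at 6 Gy 24 h, 20 at 6 Gy with CBLB502, 6 at 15 Gy 3 d and 1 for 15 Gy with CBLB502. The 18 and 20 include genes that passed the filter only through the libraries of 6 Gy at 24 h. FPKM ran higher against CPM in the 6 libraries of 6 Gy at 24 h. Without the 6 libraries of 6 Gy at 24 h, the calls at 15 Gy 3 d fell to 0. The cause was not tested for DESeq2, limma or this last fit. With 1 library left out, the counts ran from 0 to 1 (6 Gy 6 h), 0 to 2 (15 Gy 6 h, with 2 without 15 Gy 6 h replicate 1), 5 to 10 (6 Gy 24 h, with 5 without control replicate 1 or 2 or 6 Gy replicate 1), 0 to 4 (15 Gy 3 d), 6 to 10 (6 Gy with CBLB502, with 6 without control replicate 1 or 2) and 2 to 4 (15 Gy against 6 Gy at 6 h, with 4 without 15 Gy replicate 1), and were 0 in the other 5 comparisons. No change reversed direction. Replicate numbers did not pair the libraries. Same-numbered deviations correlated by -0.12 to 0.27, and no comparison had all 3 over 0.1. With the replicate block, the calls were 9 at 6 Gy 24 h, 11 at 6 Gy with CBLB502, 2 at 15 Gy 3 d, 1 at 6 Gy 6 h, 2 for 15 Gy against 6 Gy and 0 elsewhere. At under 0.005% of counts in most libraries, collagen values rest on few counts, and a gene that was not called may still differ.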

Other observations

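At 6 h, 5 of 21 tested genes that modify or secrete collagen were higher at 15 Gy than at 6 Gy and 1 was lower, a share equal to the 28.6% of all tested genes that edgeR called between these doses. P4hb, the shared subunit of prolyl hydroxylase, was higher by 1.42 ± 0.14 on the log2 scale (edgeR adjusted p = 9.5e-08) and Ppib by 0.73 ± 0.14 (edgeR adjusted p = 4.1e-04), while Mia3 was not called by edgeR. The lower gene, P4ha1, the catalytic subunit, differed by -1.37 ± 0.38 (edgeR adjusted p = 0.00867) and is named after its values were seen. Of 18 other matrix genes, 2 were higher and 1 lower, with Lamb3 higher by 2.89 ± 0.28 and Lama3 by 2.26 ± 0.57 (edgeR adjusted p = 1.3e-07 and 0.00416). Of 13 TGF-beta pathway genes 0 were higher and 3 lower, among them Smad4 at -1.2 ± 0.18 (edgeR adjusted p = 2.5e-05) and Skil at -1.32 ± 0.35 (edgeR adjusted p = 0.00621).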
